A study of Mus musculus with 2 samples.

Results

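The genes described are 4 members of the mouse chitinase family, Chia1, Chil1, Chil3 and Chil4, out of 27998 genes in each of 2 single-cell RNA libraries of whole mouse lung. They were found by their symbols in the gene tables, and all 4 are present. They had been picked with their levels by cell class in these same libraries in view, so every level and ratio below is a description and none is a test.

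Both libraries came from male C57Bl/6J mice aged 3 months, 1 mouse each. The mice had been given 100 µg of particles into the trachea, titanium dioxide or crocidolite asbestos, and were killed on day 14. The labels call one mouse control and the other fibrosis but list both particles for each, so the libraries go by control and fibrosis here. Inhaled crocidolite, an asbestos fibre, causes lasting fibrosis, and titanium dioxide is used as a particle control. The control library held 8280 cells and 36632591 unique molecular identifiers (UMIs, each standing for one captured RNA molecule), and the fibrosis library held 7173 cells and 38090308 UMIs. Filters on genes, mitochondrial UMIs and doublets left 7682 and 6763 cells, whose median depths were 3720 and 4279 UMIs. The libraries had 89 cell barcodes in common. Leaving those cells out moved the 6 log2 ratios that the text turns on by at most 0.30. With 1 library per group there was no replicate, so no difference has a check against the spread between mice. Every 95% interval covers counting error only, and UMIs of one cell are not independent of each other.

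Chitin is the sugar polymer of fungal walls, mite and insect cuticle and worm eggs. Mammals make no chitin but carry a family of secreted proteins that bind it, glycoside hydrolase family 18. Some members cut chitin, and others have lost the catalytic glutamate and act as lectins, which only bind sugars. Chia1 (acidic mammalian chitinase) is an enzyme and the main chitinase of the mouse airway. Chil1 (chitinase-3-like protein 1), Chil3 (also called Ym1) and Chil4 (Ym2) are chitinase-like proteins without that activity. In mouse lung Chil3 is a well-known product of alveolar macrophages and of macrophages exposed to interleukin 4 or interleukin 13, and Chil4 and Chia1 are known to be induced in airway epithelium by interleukin 13.

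Chia1 (ENSMUSG00000062778), Chil3 (ENSMUSG00000040809) and Chil4 (ENSMUSG00000063779) lie next to each other on chromosome 3 (GRCm38, GENCODE M21), at chr3:106113229-106132120 on the plus strand, chr3:106147554-106167564 on the minus strand and chr3:106201490-106219507 on the minus strand. The 3 genes span 106279 bases. Chil1 (ENSMUSG00000064246) lies on chromosome 1, at chr1:134182176-134190181 on the plus strand. The coding stretch around the catalytic site, from GENCODE transcripts, shows which member is the enzyme. The codon in capitals is the one that encodes the catalytic residue of active chitinases.
Chia1: tttgatggactggacctggactggGAAtac
Chil1: tttgatgggctggatctcgcctggCTCtac
Chil3: tttgatggcctcaacctggactggCAGtac
Chil4: tttgatggcctcaacctggactggCAGtac
Of the 4, only Chia1 carries GAA there. Chil3 and Chil4 have the same 30 bases.

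Chil3 and Chil4 are near copies. Their coding sequences shared 95.4% of 1194 aligned bases, while Chia1 shared 76.0% with Chil3 and 75.6% with Chil4, and Chil1 shared 60.1% to 63.9% with the others. The likeness reaches into the stretch before the genes, where 201 of 221 aligned bases (91.0%) were the same in the 250 bases before the RefSeq starts. The 2 stretches are printed because the genes were highest in different cell classes, as described further on. They are from RefSeq on GRCm38.p6 and end where the first exon begins in GENCODE, at chr3:106167565-106167814 for Chil3 and chr3:106219508-106219729 for Chil4, both read on the minus strand. The capitals mark TTCNNNGAA, a palindrome of the kind that STAT transcription factors bind.
Chil3: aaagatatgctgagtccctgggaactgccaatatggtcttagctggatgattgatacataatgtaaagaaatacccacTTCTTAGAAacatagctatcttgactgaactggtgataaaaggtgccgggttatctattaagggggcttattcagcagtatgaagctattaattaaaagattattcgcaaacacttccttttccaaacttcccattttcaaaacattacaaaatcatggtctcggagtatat
Chil4: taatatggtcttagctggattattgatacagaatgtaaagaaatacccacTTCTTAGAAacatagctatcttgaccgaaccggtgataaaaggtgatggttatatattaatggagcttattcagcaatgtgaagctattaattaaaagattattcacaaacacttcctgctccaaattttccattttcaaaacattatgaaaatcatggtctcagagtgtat
The match begins 172 bases before the first exon in both genes. TTCNNNGAA, which reads the same on both strands and was chosen after these stretches had been seen, occurred in 7.02% of 32851 promoters of 250 bases. It was not found in the 250 bases before Chil1, nor in the 97 bases before Chia1 that lie outside its first GENCODE exon. The same arms with 4 bases between TTC and GAA, the spacing that STAT6 prefers, occurred in 5.85% of promoters and in none of these 4 stretches. The matches are descriptions of these letters and show no binding.

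Near copies can also lose or exchange reads. Of the windows of 50 bases in the last 500 bases of the Chil3 transcript, 17.1% also occurred in another gene, and of those of Chil4, 21.1%. For windows of 98 bases the share was 7.20% for both. Chia1 and Chil1 shared no window. Most of the sequence therefore separates Chil3 from Chil4, but the counts of both remain uncertain to the extent that the reads fell on shared windows.

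Cells were assigned to classes from marker genes cell by cell, and none of the 4 genes was a marker. The classes are called "-like" since they rest on transcripts alone. In each compared class the 10 leading genes by fold held at least as many markers of that class as of any other, though endothelial-like cells held 0 of both. Levels are given as CPM, the UMIs of a gene per 1000000 UMIs of all cells of a class in one library. The 14 classes with at least 50 cells in each library were compared. Droplets also take up free RNA from broken cells. B cell-like cells (868 control and 344 fibrosis cells), which are not known to make any of the 4 proteins, serve as the background. Their median depths, 1842 and 2527 UMIs, differ from those of other classes, which limits the comparison in CPM.

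The members divided among the lung's compartments. Chil3 was highest in alveolar macrophage-like cells, at 14708 CPM in control and 41667 in fibrosis cells. Chil1 was highest in AT2-like cells (alveolar epithelial type 2, the surfactant-making cells), at 2195 and 3329 CPM. Chia1 was also highest in AT2-like cells, at 203 and 303 CPM. With classes taken from clusters, this order turned in the fibrosis library, to 304 CPM in AT2-like and 409 CPM in airway secretory-like cells. Chil4 was highest in airway secretory-like cells (club and goblet cells) in the fibrosis library only, at 161 CPM, and was at 0 in those of the control library. Over all kept cells the UMIs went from 72310 to 272424 for Chil3, from 15064 to 39956 for Chil1, from 1358 to 5054 for Chia1 and from 4 to 826 for Chil4. Those library totals depend on how many cells of each class were captured. The levels per class do not scale with that number, but they still carry free RNA and depend on the mix of cells within a class.

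**Figure D1:**
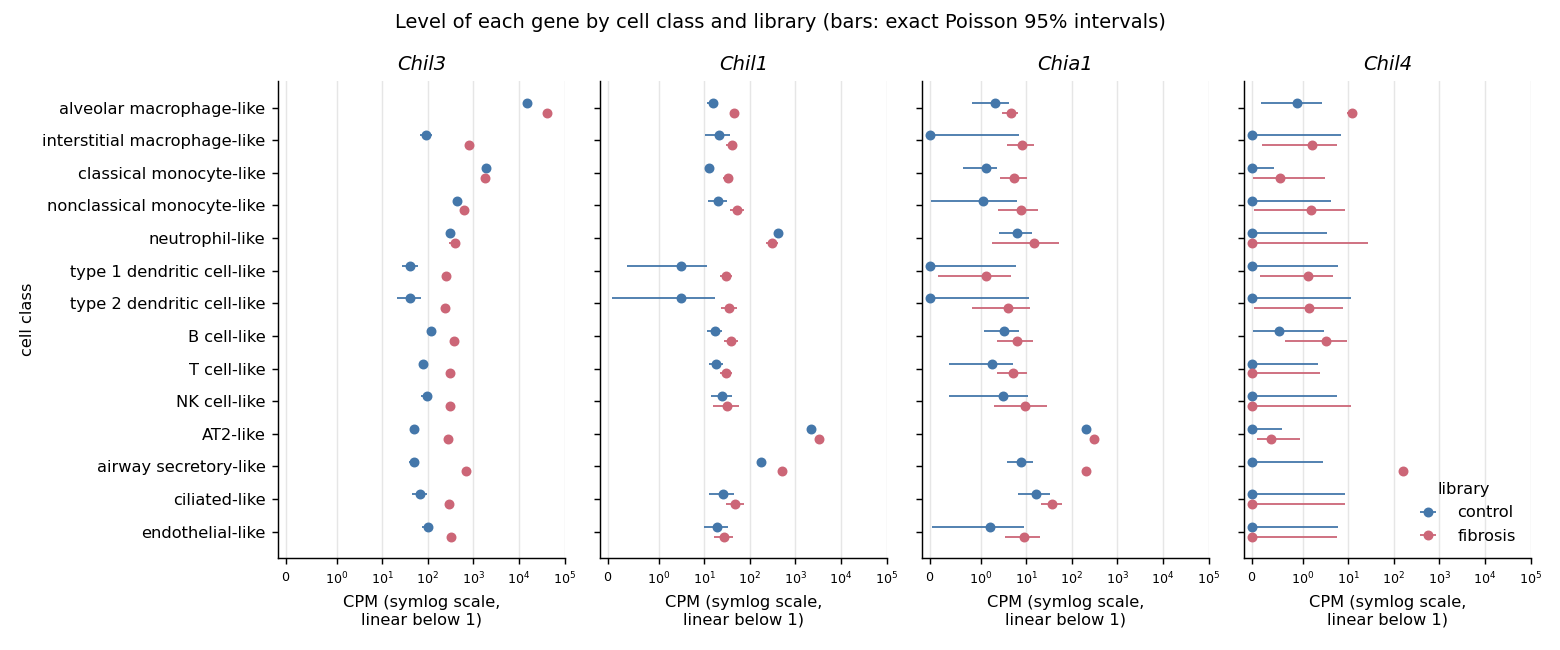
Level of Chil3, Chil1, Chia1 and Chil4 in CPM (horizontal symlog axis) in 14 cell classes (vertical axis), blue for the control and red for the fibrosis library, with exact Poisson 95% intervals as bars. Chil3 stood out in alveolar macrophage-like cells, Chil1 and Chia1 in AT2-like cells and Chil4 in airway secretory-like cells of the fibrosis library, while the low red points of Chil3 in the lymphocyte-like classes also lay to the right of the blue ones.

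The comparison between the libraries asked in which classes the genes differed. A gene was counted as higher or lower past 2-fold, among genes with at least 20 UMIs in the class over both libraries. In alveolar macrophage-like cells all 4 members were tested and 4 were higher in the fibrosis library, beside 3.62% of 10277 genes higher and 1.83% lower. Of these, Chia1 was at 2.09 and 4.54 CPM (7 and 25 UMIs, log2 ratio 1.05, -0.13 to 2.57), below the 3.20 and 6.37 CPM of B cell-like cells, and Chil1 was within the background too. In airway secretory-like cells 4 of 4 were higher, beside 7.96% of 7541 genes higher and 2.06% lower. In AT2-like cells 1 of 3 tested members was higher, Chil3, beside 4.38% of 11655 genes higher and 1.06% lower. Both members tested in B cell-like cells, Chil1 and Chil3, were higher (3.56% of all genes higher, 2.33% lower), so a difference past 2-fold was also seen in the background class. The 2 tested members, again Chil1 and Chil3, were both higher in type 1 dendritic cell-like cells (4% of all genes higher, 2.84% lower) and in type 2 dendritic cell-like cells (5.09% and 2.8%). In these 2 classes both members stood below the B cell-like level in either library. Their fibrosis levels were 30.3 and 35.2 CPM for Chil1, beside 39.3 in B cell-like cells, and 248 and 238 CPM for Chil3, beside 368. In classical monocyte-like cells 2 of 3 were higher, Chil1 and Chia1 (4.92% and 2.27%), and in ciliated-like cells 2 of 3, Chil3 and Chia1 (3.74% and 2.34%). The monocyte levels of Chil1 and Chia1 were below those of B cell-like cells in either library. In fibrosis cells they were 33.2 and 5.54 CPM, beside 39.3 and 6.37 CPM. In ciliated-like cells Chil3 was below the B cell-like level in either library, and Chia1 was above it, at 36.8 CPM in fibrosis cells. One of 2 was higher in NK cell-like (3.22% and 4.69%), T cell-like (4.39% and 1.68%), endothelial-like (4.14% and 4.82%), interstitial macrophage-like (5.57% and 3.3%) and nonclassical monocyte-like cells (2.98% and 2.75%). It was Chil3 in each of these but nonclassical monocyte-like cells, where it was Chil1. Neutrophil-like cells had 0 of 2 higher, beside 13.8% of all genes higher and 8.3% lower. No member was lower past 2-fold in any of the 14 classes.

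Chia1, the enzyme, stood in AT2-like cells at 203 CPM (1246 UMIs, 192 to 214) in control and 303 CPM (3270 UMIs, 293 to 314) in fibrosis cells, a log2 ratio of 0.58 (0.49 to 0.68). Its background was 6 UMIs in B cell-like cells of either library (3.20 and 6.37 CPM). AT2-like cells held 91.8% of the control library's Chia1 UMIs and 64.7% of the fibrosis library's. Most single AT2-like cells showed none of it. A Chia1 UMI was found in 43.0% of control and 42.2% of fibrosis AT2-like cells, and in 17.6% (15.3 to 20.1) and 19.5% (17.7 to 21.4) after each cell had been thinned to 1400 UMIs. The thinned shares in B cell-like cells were 0.691% and 0.581%, with median depths of 1842 and 2527 UMIs beside 5643 and 5582 in AT2-like cells. The 10% of AT2-like cells with the most Chia1 held 58.6% of the class's Chia1 UMIs in control and 71.6% in fibrosis cells.

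The higher Chia1 of the fibrosis AT2-like cells lay in 1 cluster. Clustering with the 4 members left out put most AT2-like cells into clusters 13, 15 and 14, and cluster 14 held 181 fibrosis cells and 0 control cells. In cluster 14 Chia1 stood at 1186 CPM (1126 to 1248). In cluster 13 it went from 291 CPM (273 to 311) in the control to 248 (235 to 263) in the fibrosis library, and in cluster 15 it was 112 (99.4 to 125) and 111 (101 to 123). Cluster 14 held 29.2% of all Chia1 UMIs of the fibrosis library. Without it, AT2-like cells had 203 CPM in control and 188 in fibrosis cells, a log2 ratio of -0.11 (-0.21 to -0.00345) in place of 0.58. Cells with at least 3 Chia1 UMIs numbered 83 of 181 in cluster 14, and 144 of 648 and 35 of 764 fibrosis cells in clusters 13 and 15. Besides Chia1 itself, the genes that led cluster 14 were Retnla (a secreted resistin-like protein induced by type 2 cytokines), Slc26a4 (the anion exchanger pendrin), Mt2 and Mt1 (metallothioneins) and Il33 (the alarmin interleukin 33), and these define the cluster and are not results. Since the cluster came from 1 library, cluster and library cannot be told apart.

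**Figure D2:**
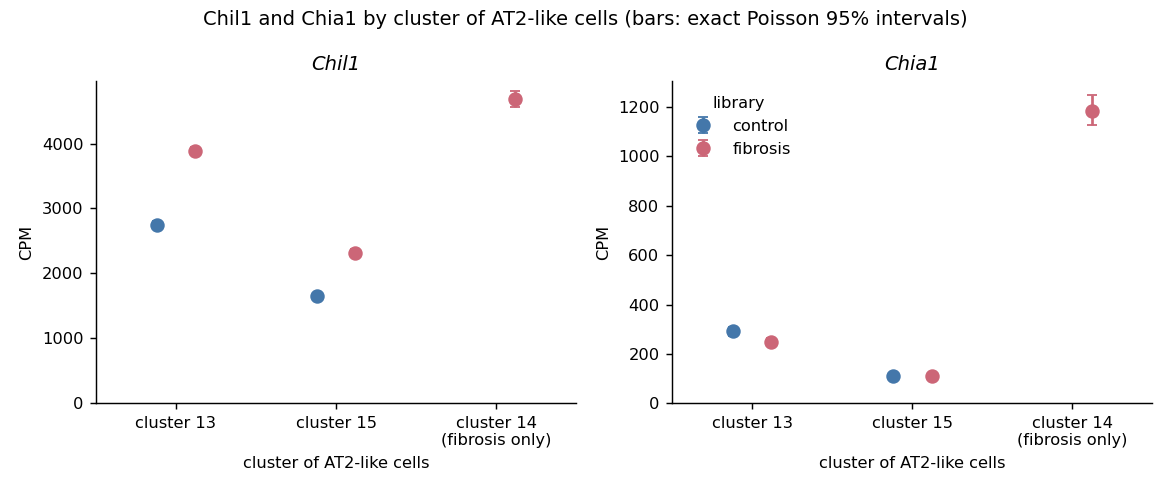
Chil1 (left) and Chia1 (right) in CPM (vertical axes, from 0) in the 3 main clusters of AT2-like cells (horizontal axis), blue for the control and red for the fibrosis library, with exact Poisson 95% intervals. Chil1 was higher in the fibrosis library in both shared clusters, whereas Chia1 was about level in cluster 15, lower in cluster 13 and far higher only in cluster 14, which had no control cells.

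In the airway Chia1 was low in control and high in fibrosis cells. Airway secretory-like cells held 10 UMIs (7.73 CPM, 3.71 to 14.2) in 63 control cells and 337 UMIs (205 CPM, 183 to 228) in 93 fibrosis cells, a log2 ratio of 4.66 (3.83 to 5.80). In CPM the control level overlapped that of the background class, and the fibrosis level was far above it. The control airway cells had a median depth of 20545 UMIs, beside 1842 in B cell-like cells. Per cell they held more Chia1, with 10 UMIs in 63 cells beside 6 in 868. Whether the control UMIs were free RNA was not tested. One fibrosis cell held 25.8% of the 337 UMIs, and the top 10 cells held 84.9%. Cells with markers of both airway secretory and AT2-like cells were few, 8 control and 33 fibrosis cells, and held Chia1 at 210 CPM (133 to 315) and 1211 CPM (1132 to 1293), or 17.5% of the gene's fibrosis UMIs. Such cells can be real intermediates or doublets of a secretory and an AT2 cell, and these cannot be told apart here. Their median depth was 15162 UMIs in the fibrosis library, close to the 15011 of airway secretory-like cells. The single cell with most Chia1 in the fibrosis library, 253 UMIs or 5.01% of the total (4.42 to 5.64), was one of them.

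Chil1, a lectin linked to tissue repair and remodelling, was made by nearly every AT2-like cell. It stood at 2195 CPM (2158 to 2232) in control and 3329 CPM (3295 to 3364) in fibrosis cells, a log2 ratio of 0.60 (0.57 to 0.63). By level it was the 49th gene of the class in control and the 30th in fibrosis cells. After thinning, 89.3% of control and 93.7% of fibrosis AT2-like cells held a Chil1 UMI, beside 2.88% and 5.23% of B cell-like cells. The median AT2-like cell carried 18.8 Chil1 UMIs per 10000 in control and 26.8 in fibrosis cells, and the 90th percentile moved from 36.7 to 55.4. AT2-like cells held 89.5% and 89.8% of all Chil1 UMIs.

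Unlike the difference in Chia1, that in Chil1 was present in both large AT2-like clusters that the libraries share. In cluster 13 the level went from 2741 to 3886 CPM (log2 ratio 0.50, 0.47 to 0.54) and in cluster 15 from 1650 to 2320 CPM (0.49, 0.44 to 0.54). Cluster 14, of the fibrosis library alone, had 4680 CPM. Without cluster 14 the log2 ratio over AT2-like cells was 0.52 (0.49 to 0.55).

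Neutrophil-like cells also held Chil1 above the background and came second in the control library. They had 424 CPM (466 UMIs in 536 cells, 386 to 464) in control and 308 CPM (42 UMIs in 54 cells, 222 to 416) in fibrosis cells, a log2 ratio of -0.44 (-0.95 to -0.0029). A thinned share of 40.5% of the control and 35.2% of the fibrosis cells held a UMI, and the intervals (36.3 to 44.8 and 22.7 to 49.4) overlap. Chil1 protein is known from the granules of neutrophils. Chil3 in the same cells stood at 314 CPM (281 to 349) in control and 396 CPM (297 to 517) in fibrosis cells. B cell-like cells had Chil3 at 116 CPM (101 to 132) and 368 CPM (330 to 408), so the fibrosis level overlapped the background. In control, 54 of the 536 neutrophil-like cells held 78.8% of the class's Chil3. Airway secretory-like cells had Chil1 at 174 CPM (152 to 198) in control and 500 CPM (467 to 535) in fibrosis cells, a log2 ratio of 1.52 (1.31 to 1.74). In alveolar macrophage-like cells Chil1 was 15.5 and 45.0 CPM, and in B cell-like cells 17.1 (11.7 to 24.1) and 39.3 (27.7 to 54.2), so the macrophage level could not be told from the background in either library.

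Chil3 was among the most abundant transcripts of alveolar macrophage-like cells. In 654 control cells it made up 14708 CPM (49354 UMIs, 14579 to 14839) and was the 6th gene of the class by level, and in 949 fibrosis cells it made up 41667 CPM (229486 UMIs, 41497 to 41838) and was the 1st. The log2 ratio was 1.50 (1.49 to 1.52), a fold of 2.83. These cells held 68.3% of the control library's Chil3 UMIs and 84.2% of the fibrosis library's. Nearly every cell carried it. After thinning, 99.8% of the cells in either library held a Chil3 UMI, beside 15.8% and 36.6% of B cell-like cells.

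The spread between macrophages widened more than the middle moved. The median cell went from 132 to 267 Chil3 UMIs per 10000, the 90th percentile from 225 to 882 and the highest cell from 425 to 2088. Cluster 1, which held 610 of the control and 732 of the fibrosis alveolar macrophage-like cells, went from 14799 to 33294 CPM (log2 ratio 1.17, 1.15 to 1.19). Cluster 4 held 1 control and 145 fibrosis cells and had 74790 CPM in the fibrosis library, which was 27.8% of that library's Chil3 UMIs. The genes that led cluster 4 were Rbp4, Arg1 (arginase, an enzyme of alternatively activated macrophages), Mfge8, Mmp12 (macrophage elastase) and Spp1 (osteopontin), and it too cannot be told apart from its library. Without cluster 4 the log2 ratio over the class was 1.22 (1.20 to 1.23).

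**Figure D3:**
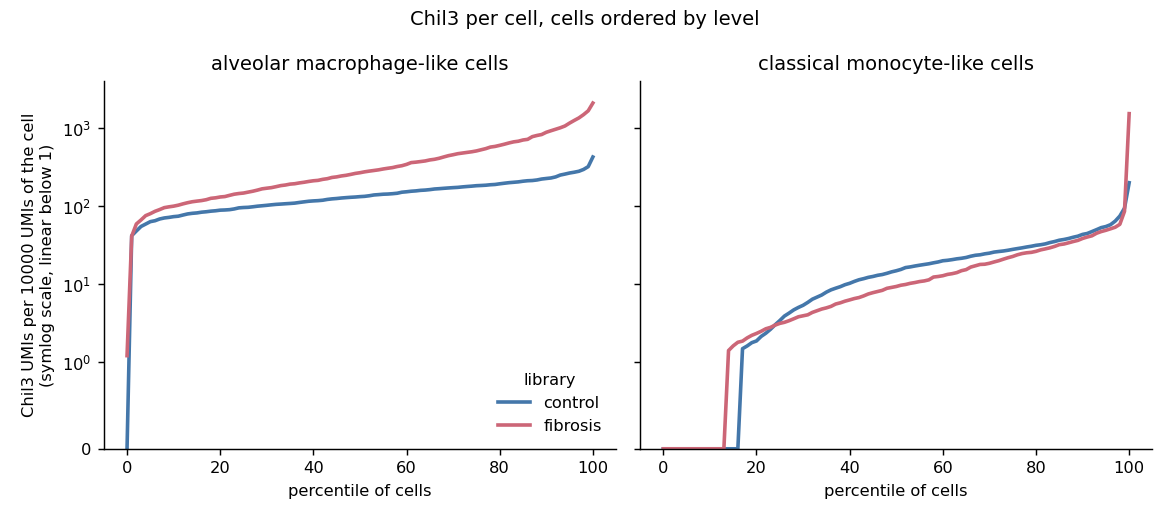
Chil3 UMIs per 10000 UMIs of a cell (vertical symlog axis) against the percentile of cells ordered by level (horizontal axis), in alveolar macrophage-like cells (left) and classical monocyte-like cells (right), blue for the control and red for the fibrosis library. In macrophages the red line lay above the blue along almost the whole range and most at the top, while in monocytes the red line lay below the blue over most of the range and ended at 1528.

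Classical monocyte-like cells came second. They held 1899 CPM (16092 UMIs in 1629 cells, 1870 to 1929) in control and 1803 CPM (3254 UMIs in 429 cells, 1741 to 1866) in fibrosis cells. The log2 ratio was -0.08 (-0.13 to -0.02), and it was -0.26 without the top cell of each library. In the fibrosis library 1 cell held 12.3% of the class's Chil3, and the highest cell reached 1528 UMIs per 10000, a level within the range of alveolar macrophage-like cells. The median monocyte carried 14.8 Chil3 UMIs per 10000 in control and 9.31 in fibrosis cells. The median B cell-like cell carried 0 and 3.36. Monocyte-like cells were not uniform. Cluster 9, led by Saa3, C3 and Mmp8, had 1991 and 1745 CPM, and cluster 5, led by genes of antigen presentation (H2-Aa, H2-Ab1, Cd74), had 452 and 552 CPM. Nonclassical monocyte-like cells, the patrolling kind, had 445 (402 to 491) and 618 CPM (559 to 681).

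In most other classes Chil3 was close to the background and moved with it. B cell-like cells had 116 CPM (101 to 132) in the control and 368 (330 to 408) in the other library. Their log2 ratio was 1.66 (1.42 to 1.92). Over 8 classes (AT2-like, B cell-like, T cell-like, NK cell-like, ciliated-like, endothelial-like and both dendritic cell-like classes) the level lay between 40.6 and 116 CPM in control and between 238 and 368 CPM in fibrosis cells. Interstitial macrophage-like cells (91.4 to 822 CPM) and airway secretory-like cells (51.0 to 708 CPM) ended higher, but in both a few cells held most of the gene. The top 34 of 338 interstitial macrophage-like cells held 73.6% of the class's Chil3 in the fibrosis library and the top 10 of 93 airway secretory-like cells held 76.6%. The median fibrosis cell of these classes carried 2.80 and 2.17 Chil3 UMIs per 10000, beside 3.36 in the median B cell-like cell. Depth differed, with medians of 3261.5 and 15011 UMIs beside 2527. A Chil3 UMI was found in 65.4% and 87.1% of the cells beside 61.3% of B cell-like cells. After thinning the shares were 35.8% and 28.0% beside 36.6%. Whether the median cell of these classes makes Chil3 was not tested. Fibroblast-like cells of the control library, 43 in number and outside the comparison, had 1112 CPM, of which 1 cell held 67.5%.

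Chil4 was at the limit of detection in the control library and frequent in a few fibrosis cells. The control library held 4 UMIs in 4 cells, of which 3 were alveolar macrophage-like and 1 was B cell-like. Airway secretory-like cells held 0 UMIs in 63 control cells, which allows up to 2.32 CPM, and 266 UMIs (161 CPM, 143 to 182) in 93 fibrosis cells, at least 69.6-fold higher when 3 counts are set for the control class. Cells with markers of both airway secretory and ciliated cells held 0 UMIs in 37 control and 434 UMIs (300 CPM, 273 to 330) in 61 fibrosis cells. One cell held 347 of the 434, and without it the level was 61.5 CPM. Those with AT2 markers held 0 and 15 UMIs. Over the 3 groups of airway secretory-like cells together, 108 control cells held 0 UMIs and 187 fibrosis cells held 715, which was 86.6% of the gene's fibrosis UMIs.

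Few cells carried it. One fibrosis cell held 347 of 826 Chil4 UMIs, 42.0% (38.6 to 45.5), at a depth of 29247 UMIs and with both airway secretory and ciliated markers, and the next held 99. The top 10 cells held 76.5%, whereas for Chil3, Chil1 and Chia1 the top 10 cells of the same library held 7.38%, 4.07% and 23.1%. Of airway secretory-like cells, 18.3% held a Chil4 UMI in the fibrosis library, or 12.9% (6.85 to 21.4) after thinning, beside 0.581% (0.0705 to 2.08) of B cell-like cells. Without its top cell in the fibrosis library, the airway secretory-like class still lay above the control limit, with a log2 lower bound of 5.44 in place of 6.12.

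**Figure D4:**
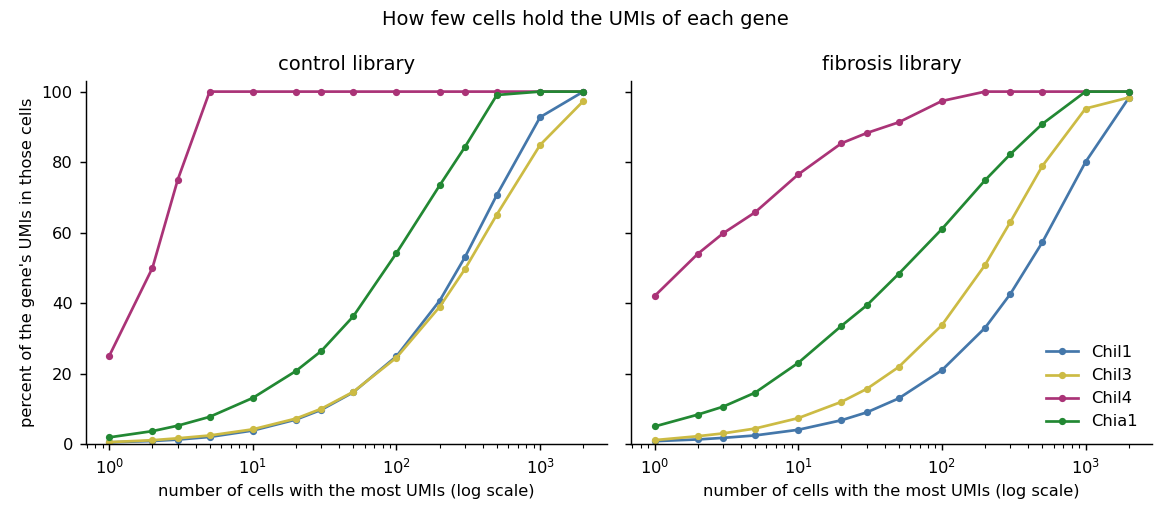
Percent of the UMIs of each gene (vertical axis) held by the cells with the most UMIs (number of cells on the horizontal log axis), in the control (left) and fibrosis library (right), for Chil1, Chil3, Chil4 and Chia1. In the fibrosis library 10 cells held 76.5% of Chil4, 23.1% of Chia1, 7.38% of Chil3 and 4.07% of Chil1, and the control line of Chil4 rests on 4 UMIs.

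Most Chil4 UMIs of the airway lay in cells with goblet cell markers. Of 12 listed goblet markers, such as the gel-forming mucins Muc5b and Muc5ac, 4 or more were present in 52 of 187 fibrosis and 8 of 108 control airway secretory-like cells. The 52 cells held Chil4 at 602 CPM (558 to 649) and the other 135 at 8.60 CPM (5.45 to 12.9), so the 52 held 83.8% of all Chil4 UMIs in the fibrosis library. One of them, the same cell as above, held 347 of their 692 UMIs. A Chil4 UMI was found in 26 of the 52 and in 10 of the 135. The 8 control cells held 0. Near the limit of 4 markers, the 12 fibrosis cells with exactly 4 held 50 Chil4 UMIs and the 24 with exactly 3 held 6. Of the 12 cells, 3 held a Chil4 UMI and only 1 held at least 3. Of the 24 cells, 1 held all 6 UMIs, so this difference rests mostly on 1 cell in each group. Chia1 was divided otherwise, at 501 CPM (460 to 543) in the 52 cells and 311 CPM (290 to 333) in the 135. Of the 1406 Chia1 UMIs in the 187 cells, 885 lay in the 33 cells with AT2 markers, which can be doublets with AT2 cells.

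Some airway cells held both Chil4 and Chia1. Of the 187 fibrosis cells, 21 held at least 3 Chil4 UMIs, 52 held at least 3 Chia1 UMIs and 7 held both. Among the 52 with Chia1 were 19 of the 33 cells with AT2 markers. Of the 21 cells with Chil4, 18 had 4 or more goblet markers, and of the 52 with Chia1, 15 did, beside 52 of all 187 cells. The median number of goblet markers was 7 in the former, 2 in the latter and 2 over all 187 cells. Of 108 control cells, 6 held at least 3 Chia1 UMIs.

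**Figure D5:**
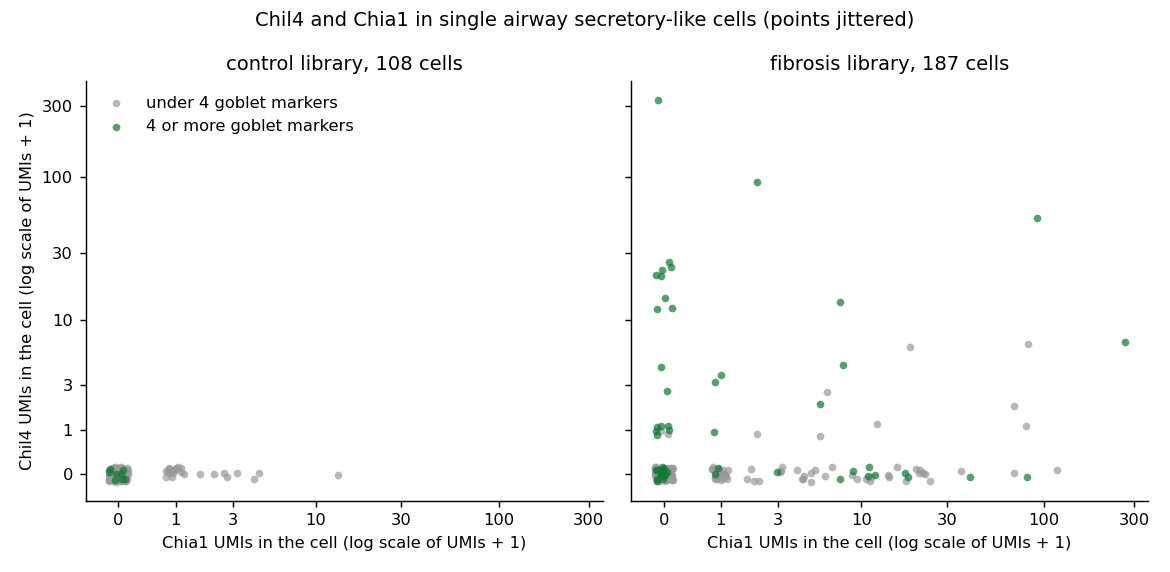
Chil4 UMIs (vertical axis) against Chia1 UMIs (horizontal axis) in each airway secretory-like cell, including those with ciliated or AT2 markers, on log scales of UMIs + 1 with points jittered, for 108 control (left) and 187 fibrosis cells (right), with cells of 4 or more goblet markers in green. Of the 21 fibrosis cells with at least 3 Chil4 UMIs 18 are green, of the 52 with at least 3 Chia1 UMIs 15 are green, as are 52 of all 187, and the control cells have no Chil4.

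In alveolar macrophage-like cells, where Chil3 abounds, the control had 3 Chil4 UMIs (0.894 CPM, 0.184 to 2.61) and the fibrosis library 68 (12.3 CPM, 9.59 to 15.7). Their log2 ratio was 3.58 (2.18 to 6.10). Of the 68 UMIs, 30 lay in the 145 cells of cluster 4. Set against the near-identical Chil3, there were 0.0608 Chil4 UMIs per 1000 Chil3 UMIs in the control (0.0125 to 0.178) and 0.296 (0.230 to 0.376) in the fibrosis library. In airway secretory-like cells of the fibrosis library the same ratio was 228 (201 to 257). In classical monocyte-like cells of the control library it was 0 of 16092 Chil3 UMIs. In those of the fibrosis library it was 0.307 (0.00778 to 1.71), from 1 Chil4 UMI, and overlapped the macrophage ratio. The B cell-like background of Chil4 in the fibrosis library was 3.19 CPM (0.657 to 9.31). After thinning, 1.37% (0.731 to 2.33) of fibrosis alveolar macrophage-like cells held a Chil4 UMI, beside 0.581% (0.0705 to 2.08) of B cell-like cells. Whether these UMIs are Chil4 RNA of the macrophages, free RNA or reads of Chil3 was not tested.

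The genes with profiles most like each member were found by Pearson's r of log2(CPM + 1) over 28 points, the 14 classes in both libraries, among 12843 genes with at least 100 UMIs. The points share libraries and free RNA, so r is a description. Chil1 was closest to Slco4c1 (an organic anion transporter, r = 0.91), then to the surfactant genes Sftpd (0.89) and Sftpa1 (0.86), the lung chemokine Cxcl15 (0.88) and Chia1 (0.86). Among the genes with profiles like that of Chia1 were Fgfr2 (the growth factor receptor of alveolar epithelium, 0.88), the membrane mucin Muc1 (0.88), Npw (0.88) and Sftpd (0.88). Chil3 was closest to Rnase2b (an eosinophil-associated ribonuclease, 0.83), Tfec (0.81), Fabp1 (0.80), Slc39a2 (a zinc transporter, 0.80) and Mtap7d3 (0.79). Chil4 was closest to Clca1 (a secreted goblet cell protein that acts on mucus, 0.88), Scin (an actin-severing protein, 0.85), the mucin gene Muc5ac (0.73), Bpifb1 (0.67) and Fcgbp (0.66). These r values of Chil4 rest largely on airway secretory-like cells of the fibrosis library, at 161 CPM, of which 1 cell held 37.2%. At every other point Chil4 was at 12.3 CPM or below. Of the genes named here, Sftpd, Cxcl15, Sftpa1, Fabp1, Clca1, Muc5ac, Bpifb1, Fcgbp and Muc1 were markers used to assign the classes. Among the members, r was 0.86 between Chia1 and Chil1, 0.45 between Chil4 and Chil3, and 0.01 between Chil3 and Chil1.

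Few UMIs came from the rest of the family. The other chitinase, Chit1 (chitotriosidase), had 3 UMIs in control and 4 in fibrosis cells, Chil6 had 1 and 2, Ovgp1 had 18 and 14, and Chil5 had 39 and 20, with its highest class level in neutrophil-like cells. The lysosomal members Chid1 (682 and 630 UMIs) and Ctbs (308 and 284 UMIs) were found at low levels in many classes. In AT2-like cells Chid1 stood at 16.4 and 16.1 CPM and in alveolar macrophage-like cells at 18.5 and 19.1 CPM.

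Genes known to respond to type 2 cytokines, signals known to induce Chil3, Chil4 and Chia1, were listed to show what moved beside the members. Of 33 such genes in the files, 17 were tested in alveolar macrophage-like cells. There 12 were higher and 0 lower past 2-fold, beside 3.62% and 1.83% of all genes. Their median log2 ratio was 1.60 beside -0.07 over all genes. Arg1 went from 1 to 617 UMIs, the chemokine Ccl17 from 2.68 to 195 CPM and Ccl24, an eosinophil chemokine, from 0 to 217 UMIs. Arg1 was among the genes that led cluster 4, where it stood at 542 CPM in the fibrosis library. Without cluster 4, Arg1 was at 0.299 CPM in control and 15.3 CPM in fibrosis alveolar macrophage-like cells. In airway secretory-like cells 8 of 11 were higher and 0 lower (median 2.54 beside 0.20), beside 7.96% and 2.06% of all genes. Retnla went from 452 to 18193 CPM there. Clca1 went from 0 to 1210 UMIs (734 CPM, at least 317-fold higher on the same limit), Muc5ac from 2.32 to 40.7 CPM, Muc5b from 85.8 to 272 CPM and Agr2, a chaperone of mucin folding, from 4.64 to 62.5 CPM. In AT2-like cells 5 of 15 were higher and 0 lower (median 0.82 beside 0.06), beside 4.38% and 1.06% of all genes. Retnla went from 22.6 to 2782 CPM and Slc26a4 from 7.81 to 94.5 CPM there. Both were among the genes that led cluster 14, where they stood at 20127 and 448 CPM. Without cluster 14, fibrosis AT2-like cells had Retnla at 513 CPM and Slc26a4 at 48.2 CPM. Some of the tested genes were themselves markers of a class, 6 in alveolar macrophage-like, 6 in airway secretory-like and 7 in AT2-like cells. In B cell-like cells 3 of 5 were also higher (median 1.34 beside 0.02), beside 3.56% of all genes. Some listed genes were lower past 2-fold in other classes. In type 1 dendritic cell-like cells 3 of 7 were higher and 2 lower (4% and 2.84% of all genes). In interstitial macrophage-like cells 3 of 10 were higher and 1 lower (5.57% and 3.3%). In nonclassical monocyte-like cells 2 of 4 were higher and 1 lower (2.98% and 2.75%). In the remaining compared classes none was lower. The part of free RNA in the counts of all these classes was not tested.

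Of the type 2 cytokines, Il13 went from 1 to 46 UMIs over all kept cells, Il5 from 0 to 7 and Il4 from 21 to 15. Such totals depend on the cells captured, and whether these cytokines caused any difference in the members was not tested. Type 2 innate lymphoid-like cells, whose marker list included Il13 and Il5, numbered 7 in control and 37 in fibrosis. Of the alarmins, Tslp went from 58 to 47 UMIs and Il25 from 0 to 2. The alarmin Il33 had most of its UMIs in AT2-like cells, at 316 CPM (1942 UMIs) and 495 CPM (5330 UMIs). Without cluster 14, which Il33 was among the genes to lead, the fibrosis level was 430 CPM. Il4ra, the shared receptor chain, was 10.6 and 22.7 CPM in AT2-like cells (log2 ratio 1.10, 0.70 to 1.52), 3.09 and 10.9 CPM in airway secretory-like cells (4 and 18 UMIs) and 40.5 and 51.7 CPM in alveolar macrophage-like cells. Stat6, the factor downstream of it, was 26.4 and 28.3 CPM in AT2-like and 69.1 and 55.9 CPM in alveolar macrophage-like cells. Of 8 genes reported as partners or receptors of the Chil1 protein, Il13ra2 had 0 and 1 UMIs. Cd44, a hyaluronan receptor, was 1304 and 1544 CPM in alveolar macrophage-like cells (log2 ratio 0.24), and Tmem219 was 38.4 and 46.3 CPM in AT2-like cells. In AT2-like cells 0 of 6 tested partners were higher or lower past 2-fold, beside 4.38% and 1.06% of all genes. In alveolar macrophage-like cells 1 of 6 was higher, Sdc1, with 8 and 33 UMIs, beside 3.62% of all genes.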

How the data were processed

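The deposited values are raw counts of UMIs per gene and cell, which the authors made with bcl2fastq and Cell Ranger 1.3 on mm10, per the submitters' processing notes. How cells were selected and which annotation was used are not given in the sources used here. Cells with fewer than 200 genes or over 10% mitochondrial UMIs (254 control and 228 fibrosis cells) were removed, as were doublets called per library by scrublet in scanpy 1.11.5 (343 or 4.27%, and 182 or 2.62%, so unequally). Class scores were means of capped marker levels. A cell needed a top score of 0.2, 3 markers and no other class above 0.6 of the top (0.8 within a lineage), which left 825 and 832 mixed and 139 and 197 unassigned cells. This rule was set after seeing the data, and the members, marker lists and gene lists were chosen with earlier results of these data known. Leiden clusters (igraph 0.11.9, 2000 variable genes without the members) were the alternative. Ratios are fibrosis over control with 0.5 UMI added, with exact conditional binomial 95% intervals, CPM has exact Poisson intervals and shares have Clopper-Pearson intervals. The computation was tested on simulated data. Named genes are the 4 members in every compared class, list genes with at least 20 UMIs in the class, and the 5 genes most like each member, of which 1 is not reported here. Genes of a list outside that rule are named with UMI totals. TMM factors are from edgeR 4.0.16. A comparison of proteins was planned, and coding bases from GENCODE were aligned with biopython 1.88 in its place.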

Additional observations from a re-analysis of the deposited data

How the results depend on the processing

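No paired analysis was possible because each group is 1 library. Leaving out a replicate was not possible for the same reason. Of the alternatives, 69 values stayed within the counting interval of the reported value (for counts of genes, within 1.5 times), 43 moved beyond it and 1 reversed. The cause of the moves was not tested. The log2 ratio of Chia1 in AT2-like cells reversed from 0.58 to -0.11 without the cluster found only in the fibrosis library, and was 0.46 as a mean over cells. That alternative, the shared barcodes and the 3 airway groups as one were added after seeing the data. The log2 ratio of Chil3 in alveolar macrophage-like cells, reported as 1.50, was 1.43 with cluster classes, 1.48 with a stricter gate, 1.42 with a mitochondrial limit of 5%, 1.57 with the median ratio subtracted, 1.57 with TMM scaling, 1.46 as a mean over cells and 1.22 without the fibrosis cluster. That of Chil3 in classical monocyte-like cells, reported as -0.08, was -0.54 with cluster classes, -0.021 with a stricter gate, -0.23 with the mitochondrial limit of 5%, -0.26 without the top cell, -0.14 with the median subtracted, -0.31 with the B cell-like level subtracted and -0.019 as a mean over cells. That of Chil1 in AT2-like cells, reported as 0.60, was 0.54 with the median subtracted, 0.53 with TMM scaling and 0.52 without the fibrosis cluster. That of Chia1 in airway secretory-like cells, reported as 4.66, was 3.38 as a mean over cells. The log2 of the lower bound for Chil4 in airway secretory-like cells, reported as 6.12, was 7.16 with cluster classes, 5.90 with the mitochondrial limit of 5%, 5.44 without the top cell, 5.92 with the median subtracted, 5.91 with TMM scaling and 7.12 with the mixed airway cells. With cluster classes the fibrosis levels were 39335 CPM (Chil3, alveolar macrophage-like), 1220 (Chil3, classical monocyte-like), 3287 (Chil1, AT2-like), 409 (Chia1, airway secretory-like) and 188 (Chil4, airway secretory-like), and the classes held 95.5% of Chil3 (alveolar macrophage-like), 90.4% of Chil1 and 66.2% of Chia1 (AT2-like), and 31.4% of Chia1 and 88.1% of Chil4 (airway secretory-like). Without thinning, 42.2% of AT2-like and 37.6% of airway secretory-like cells held Chia1. Genes past 2-fold higher numbered 372, 510 and 600 in alveolar macrophage-like, AT2-like and airway secretory-like cells. With a minimum of 50 UMIs they numbered 199, 266 and 194, and with 1 UMI 1404, 1633 and 3096. The place of each class in the order of classes was kept with the B cell-like level subtracted and without the top cell. With cluster classes the fibrosis order of Chia1 turned, at 304 CPM in AT2-like and 409 CPM in airway secretory-like cells. With 4 UMIs of Chil4, no profile of it could be drawn in the control library.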
